A study of Mus musculus with 2 samples.

Results

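Monocytes of mouse blood that carried transcripts of Spp1 and Dmkn are described here. Per the labels, the donors of both groups were C57BL/6 mice that had undergone transient proximal MCAo (occlusion of the middle cerebral artery), a model of ischemic stroke, 24 h earlier. The aged library came from mice of 18 to 24 months and the young library from mice of 2 to 4 months, with 1 library for each age. Blood cells positive for CD11b, with and without Ly6G, were sorted and captured in droplets, and each molecule was counted by its unique molecular identifier (UMI). How many mice gave each library, and whether they were pooled, is not given in the sources used here, and no library of unoperated mice was analysed here. With 1 library per age, no difference between the ages has a replicate check, no p-value is given, and age, mouse and library cannot be told apart.

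The members were selected on their own counts. They are the cells that the authors labelled Monocyte and that held at least 3 UMIs of Spp1 and Dmkn summed, and they are called Spp1/Dmkn monocytes below. They numbered 343 of 1545 monocytes and of 5793 cells in all, with 317 in the aged library and 26 in the young library. They were set against the monocytes of the same library that held no UMI of either gene (sum-0 monocytes), of which there were 431 in the aged and 436 in the young library. A further 245 aged and 90 young monocytes held 1 or 2 UMIs and lie between these sets. The libraries shared 12 cell barcodes, of which 0 belonged to members.

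As background, Spp1 encodes osteopontin, a secreted phosphoprotein that binds CD44 and several integrins. It is known from bone matrix and from macrophages of injured tissue, the infarcted brain included. Dmkn encodes dermokine, a secreted protein known mainly from the upper layers of the epidermis. Classical monocytes of the mouse carry much Ly6C, leave the marrow through the chemokine receptor CCR2 and can turn into nonclassical monocytes, which lose Ly6C and gain CX3CR1.

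Spp1 lies on chromosome 5 at 104435118 to 104441050 and Dmkn on chromosome 7 at 30763756 to 30781063, both on the plus strand (GENCODE M21, GRCm38). The 250 bases before each start, from RefSeq (GRCm38.p6), are shown because the rule rests on these genes, which are not neighbours. The most upstream of 2 listed starts was taken for Spp1 (chr5:104434861-104435110) and of 3 for Dmkn (chr7:30763506-30763755). Capitals mark matches, on either strand, to the TATA box (TATAAA), the CCAAT box (CCAAT), an ETS core (GAGGAAG), a Runx core (ACCACA) and the AP-1 site (TGANTCA). None of these matches overlaps another.
Spp1: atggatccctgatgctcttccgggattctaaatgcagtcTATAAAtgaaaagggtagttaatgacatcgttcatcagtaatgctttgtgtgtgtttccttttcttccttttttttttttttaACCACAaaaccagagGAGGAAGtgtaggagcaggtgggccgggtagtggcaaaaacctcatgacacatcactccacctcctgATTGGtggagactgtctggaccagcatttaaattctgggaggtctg
Dmkn: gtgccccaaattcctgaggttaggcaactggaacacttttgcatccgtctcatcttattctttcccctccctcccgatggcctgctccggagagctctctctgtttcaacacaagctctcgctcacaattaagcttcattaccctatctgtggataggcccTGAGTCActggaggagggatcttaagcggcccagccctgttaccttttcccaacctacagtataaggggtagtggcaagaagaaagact

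The Spp1 window held 1 match each to the letters of the TATA box, the ETS core, the Runx core and, on the minus strand, the CCAAT box. From the start taken, the TATA letters lay at bases -211 to -206 and the Runx letters at -128 to -123. The ETS letters lay at -113 to -107 and the CCAAT letters at -46 to -42. The Dmkn window held 1 match to the AP-1 letters, at bases -89 to -83 from the start, and no other. Of 32851 RefSeq windows of the same length, 6.75% held the AP-1 letters, 10.6% the ETS core, 14% the Runx core, 12.4% the TATA box and 33.8% the CCAAT box. No motif of those searched was found in both windows.

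Spp1 and Dmkn were spread unevenly over the members. In the aged library the members held 972 Spp1 and 1281 Dmkn UMIs, or 382 and 504 counts per 1000000 UMIs (CPM), and in the young library 108 and 70, or 447 and 289 CPM. These values chose the cells and are given as a description. The median aged member had 2 Spp1 and 3 Dmkn UMIs and a sum of 5, and the median young member 2 and 3 with a sum of 4. The highest single cells held 40 Spp1 and 24 Dmkn UMIs in the aged library and 27 and 8 in the young library. Of the members' Spp1 UMIs, the 10 richest cells held 22.5% in the aged and 88% in the young library. Spp1 was found in 203 aged and 16 young members, so these shares do not compare how evenly it was spread. The young Spp1 level rests on few cells. Both transcripts were found in 169 of 317 aged and 13 of 26 young members, Dmkn alone in 114 and 10, and Spp1 alone in 34 and 3.

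No gap in the counts marked the cutoff. Just inside it, 75 aged and 10 young monocytes had a sum of exactly 3. Just outside it, 91 aged and 20 young monocytes had a sum of exactly 2.

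**Figure D1:**
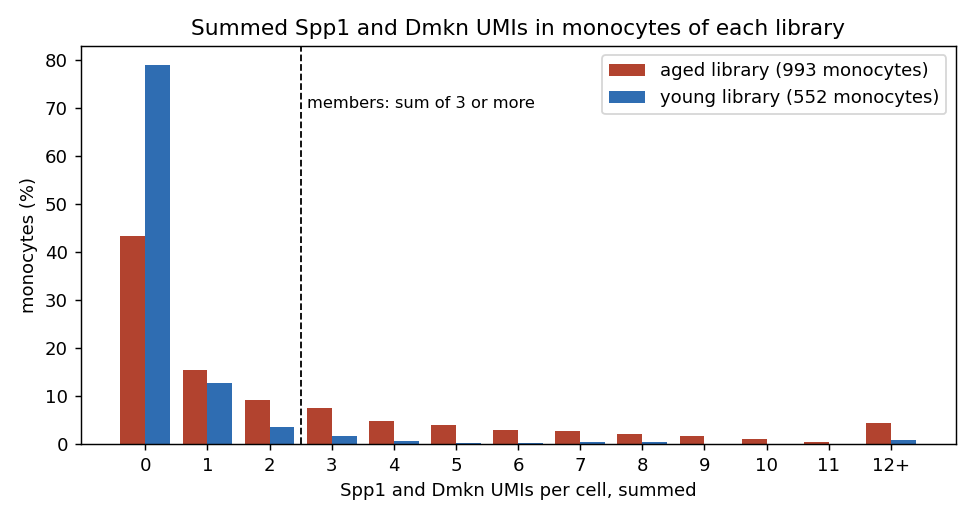
Share of monocytes (%) at each summed count of Spp1 and Dmkn UMIs per cell, for the 993 aged monocytes (red) and the 552 young monocytes (blue); the dashed line marks the cutoff. At a sum of 0 lie 43.4% of aged and 79% of young monocytes, and at a sum of exactly 3 lie 7.55% and 1.81%.

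The transcripts were more common in the aged library's monocytes. Members made up 31.9% of 993 aged monocytes (exact binomial 95% interval 29% to 34.9%) and 4.71% of 552 young monocytes (3.1% to 6.83%). As a share of all cells of the library they were 8.04% in the aged and 1.41% in the young library. An Spp1 UMI was found in 27.9% of aged and 7.25% of young monocytes, and a Dmkn UMI in 48% and 17.2%. Median depth was close, at 6366 UMIs per monocyte in the aged and 6604 in the young library. With every cell thinned to 1000 UMIs, Spp1 was found in 9.57% of aged (7.81% to 11.6%) and 2.54% of young monocytes (1.39% to 4.22%), and Dmkn in 16% (13.8% to 18.4%) and 3.26% (1.94% to 5.1%). Intervals here and below cover counting error only, not differences among mice or libraries.

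Free RNA in the droplets can give such UMIs in cells that do not make a transcript, so other cell types were read the same way. After thinning, at least 1 UMI of either gene was found in 24% of aged and 5.8% of young monocytes, against 1.23% of aged and 0.699% of young neutrophils. Among conventional dendritic cells it was found in 0 of 107 aged and in 7.55% of young cells (4 of 53, 2.09% to 18.2%). The young share was thus no lower there than in young monocytes. Neutrophils were shallow before thinning, at medians of 1914 UMIs in the aged and 1636 in the young library. A sum of 3 or more in raw counts was reached by 1 of 2681 aged and 0 of 1144 young neutrophils, where 0 allows a share of up to 0.262%, and by no NK cell of either library. Of the cells labelled conventional dendritic, 2 of 107 aged (1.87%) and 4 of 53 young (7.55%) reached it, the young share against 4.71% of young monocytes. Of those labelled follicular B cells, 2 of 41 aged and 0 of 14 young reached it. Monocytes held 94.5% of the aged library's Spp1 UMIs and 96.2% of its Dmkn UMIs, and 89.2% and 85.2% in the young library.

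Whether the transcripts went together within monocytes depended on the depth read. In raw counts, Dmkn was found in 69.3% of aged monocytes with an Spp1 UMI and in 39.8% of those without one, and in the young library in 47.5% and 14.8%. After thinning the shares were 16.8% (9.94% to 25.9%) and 15.9% (13.6% to 18.5%) in the aged library, and 0 of 14 and 3.35% in the young library. At 1000 UMIs per cell no excess of Dmkn in cells with Spp1 was detectable.

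The members were deeper cells than the sum-0 monocytes. The median member held 7552 UMIs in the aged and 9408 in the young library, against 5633 and 6360 in sum-0 monocytes. At 1000 UMIs per cell the median number of genes was 559 in aged members against 562 in aged sum-0 monocytes, and 552 in both young sets. Mitochondrial UMIs were at a median of 2.42% in aged and 2.67% in young members, against 2.51% and 2.77% in sum-0 monocytes. Comparisons below use summed counts in CPM unless thinned or raw counts are named.

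Across genes, the members differed from sum-0 monocytes in both libraries along the axis from classical to nonclassical monocytes, in several transcripts of dividing cells and in transcripts of the secretory pathway. Of the cell cycle lists given below, that of G2M moved mainly in the aged library and that of S phase in neither. Genes needed 50 UMIs in the cells compared, and a ratio of 1.5 or more in either direction was counted. In the aged library 298 of 6124 genes were higher (4.87%) and 632 lower (10.3%). In the young library, whose 26 members leave wide counting error, 528 of 4916 were higher (10.7%) and 998 lower (20.3%). These shares over all genes are the base for the counts of each gene list below. In both libraries 93 of 4877 genes were higher (1.91%) and 246 lower (5.04%). Among the 4877 genes that could be measured in both, 183 were higher in the aged and 527 in the young library, so the 93 genes were 50.8% and 17.6% of these. On the same base 484 were lower in the aged and 978 in the young library, of which the 246 genes were 50.8% and 25.2%. Of the 183 genes 5, and of the 484 genes 16, went the other way past the fold in the young library. Over all genes the log2 ratio had a median of -0.06 in the aged and -0.04 in the young library.

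**Figure D2:**
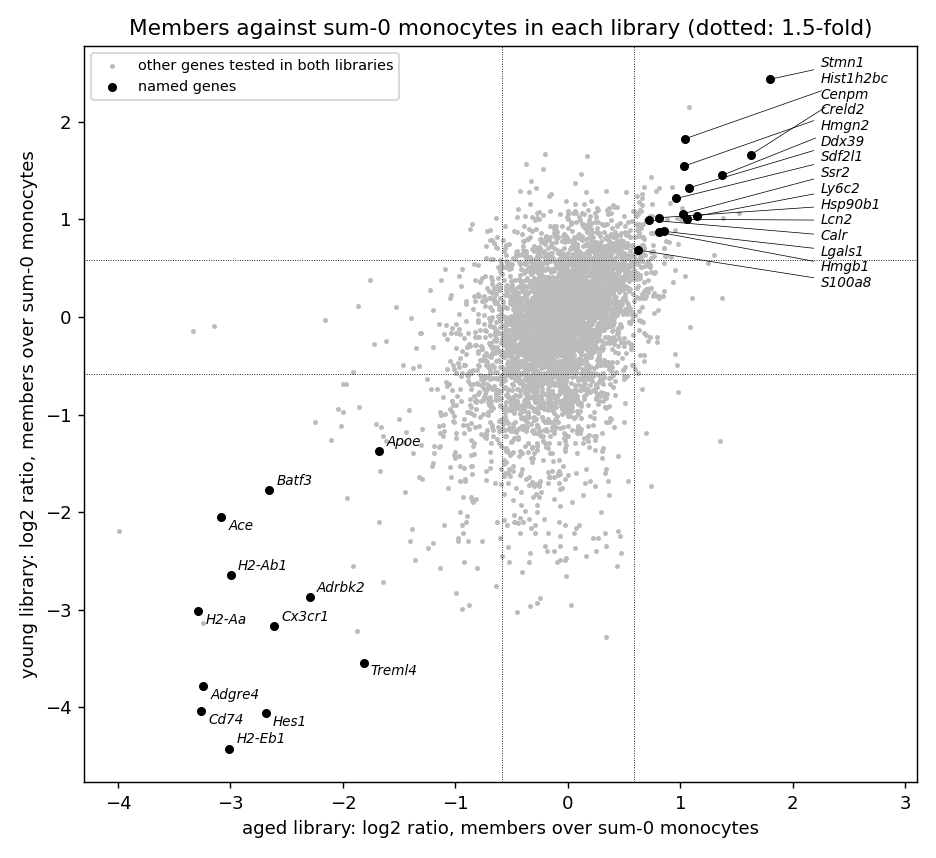
Each point is a gene measured in both libraries, at its log2 ratio of Spp1/Dmkn monocytes over sum-0 monocytes in the aged library (horizontal) and the young library (vertical); named genes are black, dotted lines mark 1.5-fold, and a gene at 0 UMIs in a set is drawn against a floor of 3 counts. The named genes lie at the upper right (Stmn1 at 1.79 and 2.44) and the lower left (Cd74 at -3.26 and -4.04), with the bulk of genes around 0.

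The members were Ly6C-rich cells. Ly6c2, which encodes the Ly6C antigen that marks classical monocytes, stood at 1536 CPM in aged and 1613 CPM in young members, against 692 and 787 CPM in sum-0 monocytes. The ratio was 2.22 (2.1 to 2.35) in the aged and 2.05 (1.83 to 2.28) in the young library. At 1000 UMIs per cell, Ly6c2 was found in 66.2% of aged and 76.9% of young members, against 36.2% and 44.7% of sum-0 monocytes and 30.8% and 25.3% of NK and B cells, of which NK cells can carry Ly6C. At least 3 Ly6c2 UMIs in raw counts were held by 89.6% of aged and 92.3% of young members, against 44.1% and 53.7% of sum-0 monocytes.

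The rest of the classical list moved less. Of its 14 genes, 3 were higher and 1 lower in the aged library, with a median log2 ratio of 0.36, and 3 higher and 0 lower in the young library, with a median of 0.32. F13a1, the coagulation factor XIII A chain, was at 780 CPM in aged and 943 CPM in young members against 428 and 612 CPM in sum-0 monocytes, a ratio of 1.82 (1.69 to 1.97) and 1.54 (1.34 to 1.77). Ccr2 itself was lower in aged members, short of the fold, and not higher in young members, at 795 and 922 CPM against 1038 and 998 CPM.

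Transcripts of nonclassical monocytes were scarce. Of the measured genes of that list, 10 of 11 were lower in aged members (median log2 ratio -1.07) and 11 of 14 in young members (-1.47), with none higher in either. Cx3cr1, the fractalkine receptor, was at 9.04 CPM in aged and 12.4 CPM in young members (23 and 3 UMIs), against 55.2 and 112 CPM in sum-0 monocytes. Ace, the angiotensin-converting enzyme, had 8 UMIs in aged and 0 in young members, against 68 and 142 in sum-0 monocytes. The aged ratio was 0.118 (0.049 to 0.246), and the young level was at most 0.241 times that of sum-0 cells on a floor of 3 counts. Nr4a1, a nuclear receptor needed for nonclassical monocytes in the mouse, had ratios of 0.408 (0.316 to 0.522) and 0.316 (0.157 to 0.572). Adgre4, an adhesion receptor of the EGF-TM7 family, and Treml4, a TREM-like receptor, were among the lowest as well, at 0.106 and 0.284 in the aged library and with 1 young member UMI each. At least 3 UMIs of Ace, Treml4, Adgre4 and Cx3cr1 summed were held by 8 of 317 aged and 0 of 26 young members, against 60 of 431 aged and 97 of 436 young sum-0 monocytes.

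MHC class II transcripts, which present antigen to CD4 T cells, had the lowest median of the lists in both libraries. All 6 measured genes were lower in aged members (median log2 ratio -3) and 5 of 6 in young members (-2.83). Cd74, the invariant chain of class II, was at 236 CPM in aged and 53.8 CPM in young members, against 2256 and 881 CPM in sum-0 monocytes. The ratios were 0.104 (0.0958 to 0.114) and 0.061 (0.0324 to 0.104), with 13 UMIs in young members. H2-Aa and H2-Ab1, the chains of the I-A molecule, were at 0.103 and 0.125 in the aged and 0.124 and 0.16 in the young library, and H2-Eb1 at 0.124 and 0.0466. Ciita, the coactivator that switches class II on, had 0 UMIs in both sets of members, against 38 in aged and 13 in young sum-0 monocytes. The young 0 says little, since young members held 241852 UMIs in all and young sum-0 monocytes 2761909. At least 10 UMIs of Cd74, H2-Aa, H2-Ab1 and H2-Eb1 summed were held by 8 of 317 aged and 0 of 26 young members, against 92 of 431 aged and 58 of 436 young sum-0 monocytes, so most cells of every set had fewer. At 1000 UMIs per cell Cd74 was found in 5.99% of aged and 7.69% of young members, against 27.4% and 17.7% of sum-0 monocytes.

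Batf3 and Hes1, transcription factors of which Batf3 is known for dendritic cells, were also among the lowest. They had 15 UMIs each in aged members against 95 and 97 in aged sum-0 monocytes, and 0 and 1 in young members against 117 and 190. Scaled to depth, the young Batf3 ratio was at most 0.293 on a floor of 3 counts, and that of Hes1 0.0601 (0.00151 to 0.339). Adrbk2, a G protein-coupled receptor kinase, was at 0.204 in the aged and, on 2 young member UMIs, 0.137 in the young library. Some defining transcripts of dendritic cells were at or near 0 in members, though not the dendritic list as a whole. Clec9a and Zbtb46 had 0 UMIs, and Flt3 6 in aged and 2 in young members. The dendritic list summed to 214 CPM in aged and 186 CPM in young members against 1127 and 563 CPM in sum-0 monocytes, with 3 and 6 of its 11 genes at 0 in members, and dendritic RNA in the sum-0 values was not tested.

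Most macrophage transcripts were not higher in the members. Apoe, the lipid carrier apolipoprotein E, was at 1572 CPM in aged and 1435 CPM in young members against 5026 and 3714 CPM in sum-0 monocytes, a ratio of 0.313 (0.302 to 0.324) and 0.386 (0.346 to 0.43). The complement genes C1qa, C1qb and C1qc had aged ratios of 0.275, 0.549 and 0.354, and young ratios of 1.08, 0.813 and 0.484 on 9, 25 and 5 member UMIs. Of the genes of the C1q macrophage list, 5 of 8 were lower in the aged and 3 of 7 in the young library, with none higher. In raw counts, at least 3 C1q UMIs were held by 19.6% of aged members and 19.3% of aged sum-0 monocytes. In the young library the shares were 19.2% (5 of 26, 6.55% to 39.4%) and 7.57% (33 of 436, 5.27% to 10.5%). Members were deeper, so these raw shares are not on an equal footing. The lipid-associated macrophage list holds genes that go with Spp1 in macrophages of fat, atheroma and injured brain. Over all genes 4.87% were higher and 10.3% lower in the aged library, and 10.7% and 20.3% in the young library. Of the lipid-associated list, 2 of 12 were higher and 3 lower in the aged library (median log2 ratio -0.01), and 3 of 11 higher and 1 lower in the young library (0.26). Lgals1, the secreted lectin galectin-1, was the clearest of these, at 1772 CPM in aged and 1770 CPM in young members against 980 and 962 CPM. Trem2, the lipid receptor of that state, was at 113 and 99.2 CPM against 103 and 82.9 CPM, and Gpnmb had 11 aged and 1 young member UMIs against 3 and 5, too few to read. Ctsl, cathepsin L, was higher, at ratios of 1.57 (1.43 to 1.72) and 2.12 (1.63 to 2.73), and Lgmn, the lysosomal protease legumain, lower, at 0.464 and 0.567.

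**Figure D3:**
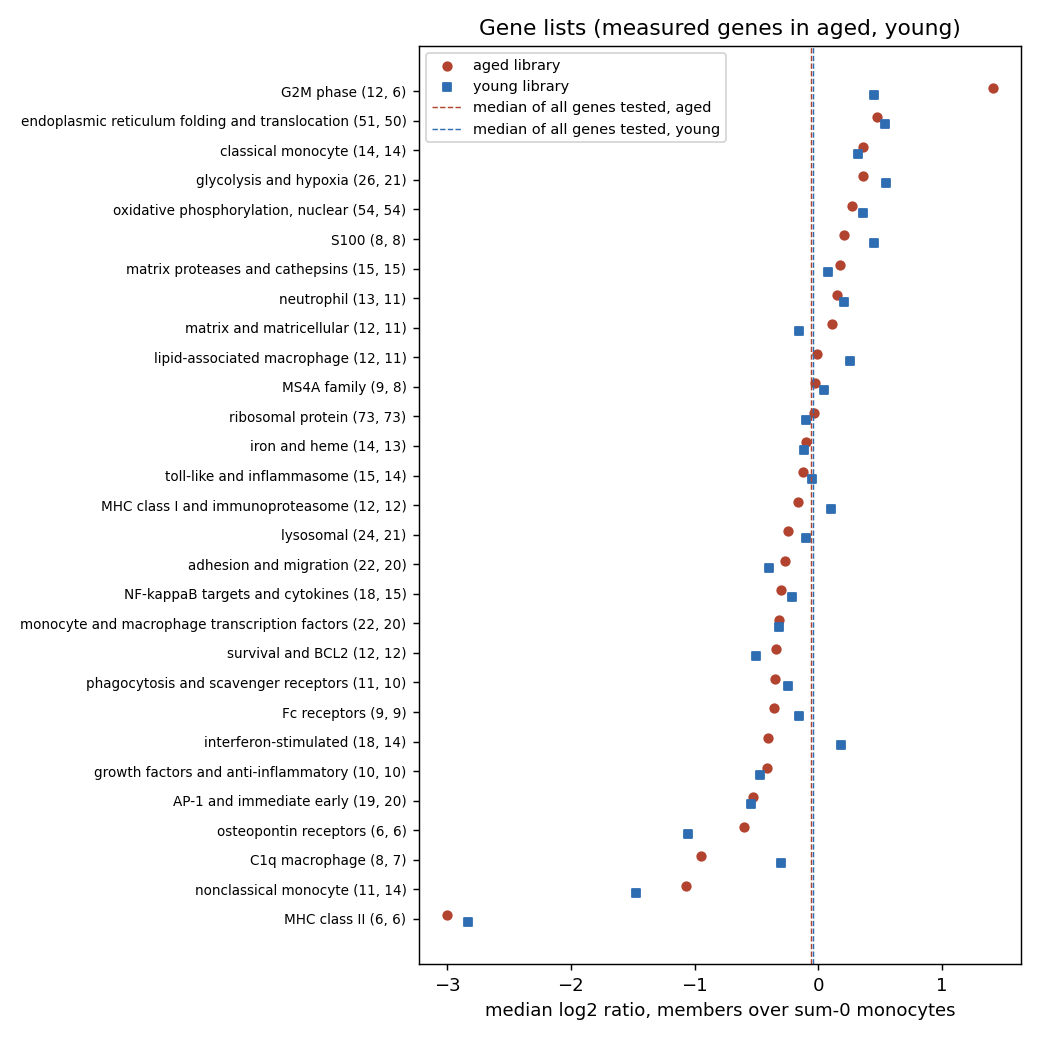
Median log2 ratio of Spp1/Dmkn monocytes over sum-0 monocytes for each gene list with at least 5 measured genes in both libraries (aged, red circles; young, blue squares); the numbers in brackets are the measured genes, and dashed lines mark the medians of all genes, -0.06 and -0.04. The MHC class II list is lowest at -3 and -2.83, and the G2M list is highest in the aged library at 1.41, with the young value at 0.45.

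Several transcripts of dividing cells were higher in the members in both libraries. Stmn1, the microtubule regulator stathmin, led the genes higher in both libraries, at 149 CPM in aged and 74.4 CPM in young members (380 and 18 UMIs) against 43.1 and 13.8 CPM in sum-0 monocytes. The ratio was 3.47 (2.8 to 4.33) in the aged and 5.41 (2.91 to 9.71) in the young library. Cenpm, a kinetochore subunit, had ratios of 3.09 (2.51 to 3.83) and 3.17 (1.66 to 5.7). Hmgn2, a nucleosome-binding protein, was at 330 and 327 CPM against 128 and 119 CPM, and Hmgb1, an abundant chromatin protein, at 729 and 575 CPM against 415 and 315 CPM. Hist1h2bc, a histone H2B gene, had ratios of 2.05 and 3.54, and Ddx39, an RNA helicase, 2.11 and 2.5.

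The lists of cell cycle genes gave a fuller count. Of the G2M list, 10 of 12 measured genes were higher in aged members and 0 lower (median log2 ratio 1.41), among them Ccnb2 (cyclin B2) at 122 against 36 CPM and Birc5 (survivin) at 70.4 against 20 CPM. In the young library 3 of 6 were higher and 1 lower (0.45). With the rule applied to cells thinned to 1000 UMIs, which leaves 23 aged members, the aged median was -0.12. Of the S phase list, 0 of 6 passed the fold in the aged library, and 1 of 4 was higher and 1 lower in the young library. Cells with at least 3 UMIs of Mki67, Top2a, Birc5, Ube2c, Ccnb2, Cdk1 and Stmn1 summed made up 110 of 317 aged members against 30 of 431 aged sum-0 monocytes, and 5 of 26 young members against 7 of 436. These shares are from raw counts, and members were deeper. At 1000 UMIs per cell Stmn1 was found in 12.6% of aged members (9.17% to 16.8%) against 3.48% of aged sum-0 monocytes (1.96% to 5.68%). In the young library it was found in 3.85% of members, which is 1 of 26 cells (0.0973% to 19.6%), against 1.38% of sum-0 monocytes (0.507% to 2.97%), and these intervals overlap.

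Several transcripts of marrow progenitors, some of them for granule proteins, were also higher in the members. Of the granule genes, only Prtn3 was measured in the young library. Of the measured genes of the myeloid progenitor list, 4 of 5 were higher in the aged library (Ms4a3, Elane, Prtn3 and Calr, which is also a chaperone of the secretory pathway) and 2 of 2 in the young library (Prtn3 and Calr), with none lower. Ms4a3, a membrane protein of granulocyte and monocyte progenitors, had 73 UMIs in aged members against 8 in aged sum-0 monocytes, a ratio of 9.16 (4.41 to 22), and was listed at 0 in both sets of young cells. Elane, neutrophil elastase, was at 28.7 CPM in aged and 16.5 CPM in young members (73 and 4 UMIs) against 8.62 and 2.53 CPM. Prtn3, proteinase 3, was at 357 and 289 CPM against 195 and 168 CPM, a ratio of 1.83 (1.64 to 2.05) and 1.72 (1.32 to 2.22). The stem cell transcripts Cd34 and Kit had 7 and 6 UMIs in aged members and 1 and 0 in young members.

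Several genes of protein folding and export in the endoplasmic reticulum were among those highest in both libraries: Sdf2l1, a chaperone component, Creld2, a disulfide isomerase, Hsp90b1 and Calr, the chaperones GRP94 and calreticulin, and Ssr2, a subunit of the translocon-associated complex. Sdf2l1 was at 404 CPM in aged and 504 CPM in young members against 207 and 217 CPM in sum-0 monocytes, a ratio of 1.95 (1.75 to 2.17) and 2.32 (1.89 to 2.83). Calr was at 751 and 922 CPM against 456 and 463 CPM, Ssr2 at 356 and 281 CPM against 175 and 135 CPM, and Creld2 at 63.3 and 91 CPM against 31 and 31.1 CPM. With the rule on thinned cells the aged Creld2 ratio was 0.749 (0.24 to 1.78). A list of 51 genes of folding and translocation was added after these values were seen, so it is a description. Of it, 19 of 51 were higher and 0 lower in the aged library (median log2 ratio 0.47), 21 of 50 higher and 3 lower in the young library (0.54), and 15 of 50 higher in both. Hspa5, the chaperone BiP, was at ratios of 1.61 (1.46 to 1.77) and 1.44 (1.13 to 1.82).

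Glycolysis moved modestly and respiration hardly past the fold. Of the glycolysis and hypoxia list, 6 of 26 genes were higher and 2 lower in aged members, and 9 of 21 higher and 2 lower in young members. Over all genes 4.87% were higher and 10.3% lower in aged members, and 10.7% and 20.3% in young members. Pkm, pyruvate kinase, was at 1545 and 1526 CPM against 1018 and 862 CPM. Nuclear genes of oxidative phosphorylation had 1 of 54 higher in the aged and 6 of 54 in the young library and 0 lower in both, although their medians were 0.27 and 0.36. None of 73 ribosomal protein genes passed the fold in either library.

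Among inflammatory genes, 8 of 19 genes of the AP-1 and immediate early list were lower in aged and 9 of 20 in young members, and none was higher. Dusp1, a MAP kinase phosphatase, had ratios of 0.663 and 0.624. Klf4, a factor of monocyte differentiation, had ratios of 0.694 (0.564 to 0.852) and 0.308 (0.152 to 0.557). Of the interferon-stimulated list, 6 of 18 measured genes were lower and 0 higher in aged members, and 2 of 14 were higher and 1 lower in young members. Ccl2, the ligand of CCR2, had 96 UMIs in aged members against 29 in aged sum-0 monocytes, a ratio of 3.32 (2.17 to 5.22). In the young library it had 2 UMIs of 241852 in members and 45 of 2761909 in sum-0 monocytes, too few to read. Il1r2, the decoy receptor of interleukin 1, was higher in both libraries, at 476 and 207 CPM in aged and young members against 292 and 104 CPM. Of the NF-kappaB and cytokine list, 1 of 18 was higher and 4 lower in the aged library, and 2 of 15 higher and 5 lower in the young library. For these lists, the shares over all genes were 4.87% higher and 10.3% lower in the aged library. In the young library they were 10.7% and 20.3%. Tgfb1, the cytokine TGF-beta 1, was lower in both, at ratios of 0.593 (0.529 to 0.665) and 0.627 (0.473 to 0.817).

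No measured receptor for osteopontin passed the fold upward in the members. Of 6 measured genes, 3 were lower in the aged and 4 in the young library and 0 higher, with median log2 ratios of -0.6 and -1.05. Cd44 was at 233 CPM in aged and 182 CPM in young members against 295 and 299 CPM in sum-0 monocytes, a ratio of 0.79 (0.709 to 0.881) and 0.608 (0.439 to 0.824). Itga4, the integrin alpha 4 chain, had ratios of 0.486 (0.401 to 0.586) and 0.321 (0.164 to 0.567), and Itgav, the alpha V chain, 0.386 (0.218 to 0.658) and, on 2 UMIs, 0.381 (0.0451 to 1.44). Itga5, the alpha 5 chain, was the one receptor with ratios above 1, at 1.15 and 1.48. Itgb3 had 0 UMIs in both sets of members.

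Several survival, adhesion and Fc receptor genes were lower in the members. Over all genes 10.3% were lower in the aged and 20.3% in the young library. Of the survival list 5 of 12 were lower in each library and 0 higher, with Bcl2a1b, a BCL2 relative of activated leukocytes, at ratios of 0.232 and 0.418. Of the adhesion and migration list, 7 of 22 were lower and 1 higher in the aged library, and 9 of 20 lower and 0 higher in the young library. Of 9 Fc receptor genes 3 were lower in each library, with 0 higher in the aged and 1 higher in the young library. Fcgr4, the receptor typical of nonclassical monocytes, stood at 0.405 and 0.403. Fcgr1, the high-affinity receptor of classical monocytes and macrophages, stood at 1.11 and 2.23.

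Neighbours and tissue partners of the rule's genes were at or near 0. Sbsn, which encodes suprabasin and lies beside Dmkn on chromosome 7, had 15 UMIs in aged members and 15 in aged sum-0 monocytes. In the young sets it had 1 and 13, or 4.1 and 4.7 CPM. Of the 4 keratinocyte genes in the table, Sfn and Perp had 0 UMIs in members and Krt10 had 7 and 1. Of the osteoclast genes, Ctsk had 0 UMIs in members, and Acp5, the tartrate-resistant phosphatase, was lower in members, at 0.384 and, on 2 UMIs, 0.222.

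S100a8 and Lcn2, abundant in neutrophils and also made by classical monocytes, were higher in the members. Lcn2, which encodes the iron-trapping lipocalin 2, was at 2865 CPM in aged and 2423 CPM in young members against 1378 and 1210 CPM in sum-0 monocytes, a ratio of 2.08 (2 to 2.17) and 2 (1.83 to 2.19). S100a8, an alarmin, was at 31655 and 23126 CPM against 20603 and 14357 CPM. Retnlg, a resistin-like transcript of neutrophils, was not, at 2490 and 1819 CPM against 2984 and 1905 CPM. Ly6g, the antigen by which neutrophils were sorted, was at 31.1 and 24.8 CPM against 38 and 15.2 CPM, on 6 UMIs in young members. Of the neutrophil list as a whole, 4 of 13 genes were higher and 2 lower in the aged library, and 4 of 11 higher and 2 lower in the young library. Its summed level was 50991 CPM in aged and 35766 CPM in young members against 36633 and 24853 CPM, with 1 of its 17 genes at 0 in aged members, 3 in young members and 1 in each set of sum-0 monocytes. In thinned cells S100a8 was found in 99% of aged and 97.7% of young NK and B cells, against 100% and 96.2% of members. Lcn2 was found in 27.9% of aged and 21.8% of young NK and B cells. It was found in 82.3% and 84.6% of members and in 49.4% and 54.8% of sum-0 monocytes. The part of neutrophil RNA or free RNA in the S100a8 and Lcn2 values was not tested. Of other markers, no T cell gene was found in young members and 4 of 6 were at 0 in aged members. Globin and other erythroid transcripts summed to 159 CPM in aged and 686 CPM in young members against 958 and 732 CPM. NK cell genes summed to 23.6 and 74.4 CPM against 27.8 and 134 CPM, and B cell genes to 13.4 and 12.4 CPM against 28.6 and 22.4 CPM.

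For some of these genes the level differed by the number of Spp1 and Dmkn UMIs below the cutoff as well as above it. Ly6c2 in the aged library was at 692, 1009, 1384 and 1674 CPM in cells with a sum of 0, 1 or 2, 3 to 5, and 6 or more, and in the young library at 787, 1310, 1586 and 1647 CPM, where the intervals of the upper 2 classes overlap. Cd74 ran the other way, at 2256, 786, 324 and 156 CPM in the aged and 881, 197, 66.4 and 37.6 CPM in the young library. Ccr2 also fell in the aged library, at 1038, 936, 840.5 and 753.5 CPM. In the young library Ccr2 was at 998, 934, 856 and 1007 CPM, with no steady order. Apoe was at 5026, 3564, 1944 and 1235 CPM in the aged library, and in the young library at 3714, 1606, 1409 and 1468 CPM, where the upper 3 classes lay close together. Stmn1 in the aged library was at 43.1, 62.1, 147 and 152 CPM, level above the cutoff within its intervals. In the young library Stmn1 was at 13.8, 33.6, 59 and 94.1 CPM, where the intervals of the upper 3 classes overlap. Others showed no step above the cutoff: aged Hmgn2 was at 128, 220, 344 and 316 CPM, aged S100a8 at 20603, 23091, 31918 and 31417 CPM, and young Lcn2 at 1210, 1977, 2441 and 2399 CPM. Retnlg was at 2984, 2758, 2947 and 2076 CPM in the aged and 1905, 1586, 2028 and 1553 CPM in the young library, with no steady order. Median depth also climbed over these classes, with 5633, 6266, 7125 and 8263 UMIs per cell in the aged and 6360, 7597, 9098 and 9594 in the young library, and its part in the trend was not tested.

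**Figure D4:**
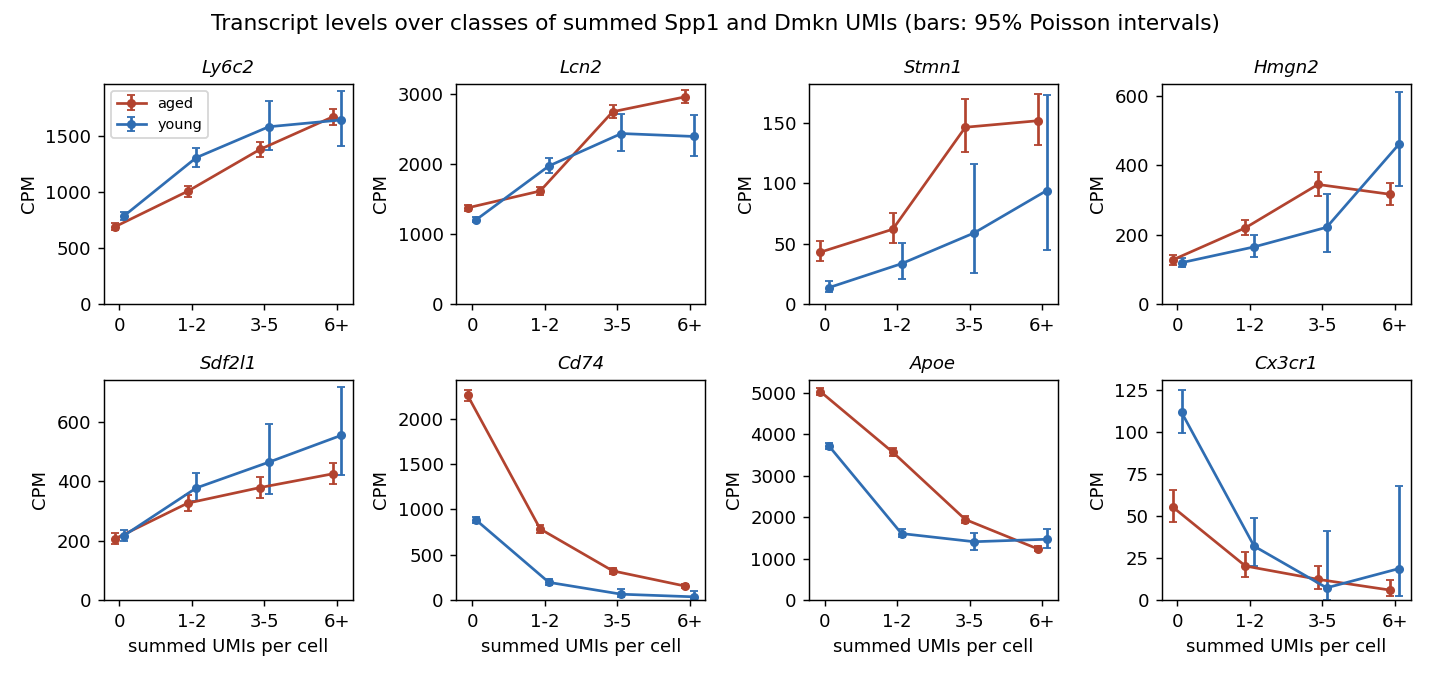
CPM of 8 genes (linear axes) over 4 classes of summed Spp1 and Dmkn UMIs per cell, with 95% Poisson intervals, in the aged (red) and young (blue) library. Ly6c2, Sdf2l1 and Stmn1 lie higher in the upper classes, while Cd74, Apoe and Cx3cr1 lie lower. Young classes of 3 to 5 and of 6 or more hold 15 and 11 cells.

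The contrast was narrower among Ly6C-rich cells. When members and sum-0 monocytes were both kept only where they held at least 3 Ly6c2 UMIs (284 and 190 aged, 24 and 234 young cells, a choice made after values were seen), 30 of 3633 measured genes were higher and 58 lower in both libraries, against 93 and 246 of 4877 in all monocytes, so part of the lower count comes with fewer genes. With both sets kept between the 10th and 90th percentile of the members' depth, 46 of 3496 were higher and 119 lower. Within the Ly6c2 cells, the Stmn1 ratio was 2.16 (1.71 to 2.75) in the aged and 3.68 (1.97 to 6.65) in the young library, and that of Sdf2l1 1.48 and 1.96. The Cd74 ratio there was 0.484 and 0.162, and that of Apoe 0.52 and 0.685. There the MHC class II median was -0.84 and -1.61, and that of the endoplasmic reticulum list 0.31 and 0.43.

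Clusters of all monocytes, made without Spp1 and Dmkn, split largely by library. Of the aged members, 85.5% lay in a cluster led by the mitotic genes Ube2c, Cdca3 and Birc5, which held 35% of aged sum-0 monocytes, and 47.6% of that cluster's aged cells were members. That cluster depended on the resolution. At a resolution of 1 in place of 0.5, the mitotic cluster (led by Birc5, Cdca8 and Ccnb2) held 24.6% of aged members against 6.03% of aged sum-0 monocytes, a cluster led by Lmna, Mmp19 and Lcn2 held 42.9% against 17.9%, and one led by Saa3, Thbs1 and Ctsl held 13.9% against 5.34%. Of the young members, 88.5% lay in a cluster led by Wdr89, Fosb and Ccl5 with 71.8% of young sum-0 monocytes, which held 2 aged cells in all; at the higher resolution these members were split as 65.4% and 19.2% over a pair of clusters. A cluster led by class II genes held 2.21% of aged and 0% of young members against 18.8% and 17.7% of sum-0 monocytes. The cluster led by Ear2, Pou2f2 and Nr4a1 held no member of either library, against 6.5% of aged and 8.03% of young sum-0 monocytes. A cluster led by Ecm1, Fcgr4 and Apoe held 5.99% of aged members and 31.1% of aged sum-0 monocytes. A last cluster, led by the neutrophil genes Retnlg and Mmp9, held 20 aged members (6.31%) and 1 young member (3.85%). It held 8.12% of aged and 0.229% of young sum-0 monocytes. Cluster sizes are not compared between ages.

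**Figure D5:**
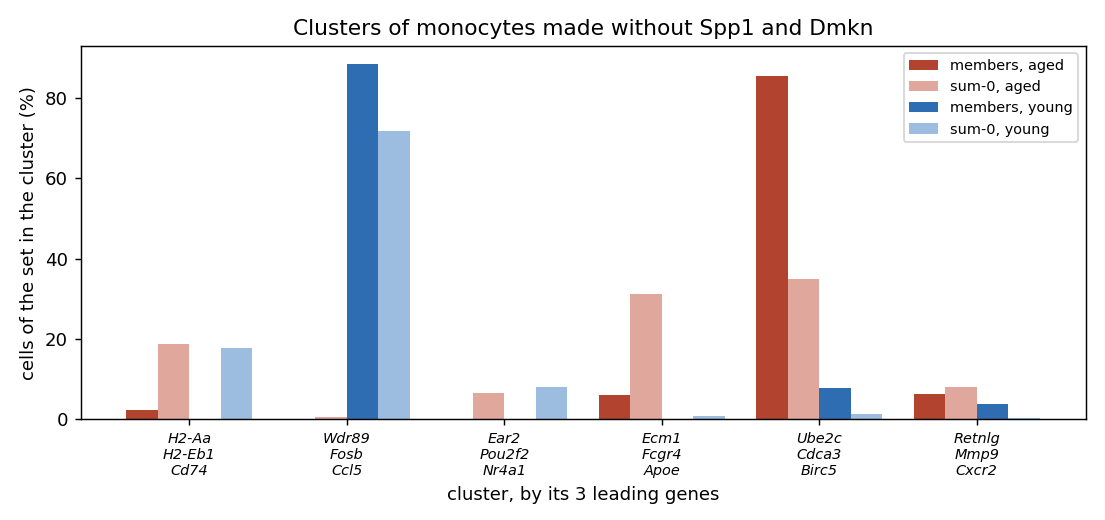
Share (%) of members and of sum-0 monocytes of each library that fell in each of 6 clusters, named by their 3 leading genes; dark bars are members and light bars sum-0 monocytes, red for aged and blue for young. At this resolution of 0.5, 85.5% of aged members lie in the Ube2c cluster and 88.5% of young members in the Wdr89 cluster; at 1, the mitotic cluster holds 24.6% of aged members.

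Aged and young members were then set against each other, with the same ratio in sum-0 monocytes beside it. Of 4460 genes measured over the members of both libraries, 698 were higher in the aged (15.7%) and 414 lower (9.28%). Between aged and young sum-0 monocytes 354 of 6438 were higher (5.5%) and 472 lower (7.33%), but the sets differ in depth and the 26 young members hold few UMIs of most genes, so these shares are not on an equal footing. Several differences ran through both sets. S100a9 was at 11379 CPM in aged and 6368 CPM in young members, a ratio of 1.79 (1.7 to 1.88) against 1.76 (1.73 to 1.8) in sum-0 monocytes. Ifitm1, an interferon-induced membrane protein, had a ratio of 2.07 (1.81 to 2.38) in members and 2.2 (2.1 to 2.3) in sum-0 monocytes, and Il1r2 2.3 (1.73 to 3.12) and 2.82 (2.46 to 3.25). Wdr89, a WD-repeat gene, was lower in both, at 0.33 (0.292 to 0.375) and 0.296 (0.278 to 0.316), as was Lyz2, lysozyme, at 0.662 and 0.75. These transcripts were also found in thinned NK and B cells. Wdr89 was in 36.5% of aged and 78.2% of young NK and B cells, and Lyz2 in 40.4% and 63.2%. S100a9 was in 100% and 97.7%, Ifitm1 in 46.2% and 42.5%, and Il1r2 in 11.5% and 3.45%. Whether the differences are particular to monocytes was not tested. In summed counts Cd74 was higher in aged members at 4.38 (2.54 to 8.28) and in aged sum-0 monocytes at 2.56 (2.44 to 2.69). The share of cells with Cd74 was not higher in aged members. In raw counts it was 22.1% of aged and 38.5% of young members, although young members were deeper. After thinning it was 5.99% (3.65% to 9.2%) and 7.69% (0.946% to 25.1%), with overlapping intervals. In sum-0 monocytes it was higher in the aged library, at 40.8% against 34.4% raw and 27.4% against 17.7% thinned.

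Other genes had ratios in members and in sum-0 monocytes that lay further apart, and the gap between these ratios was not tested. Hsd11b1, the enzyme that regenerates active glucocorticoid, was at 51.9 CPM in aged and 8.27 CPM in young members (132 and 2 UMIs), a ratio of 6.28 (1.7 to 52.4), against 1.02 (0.687 to 1.52) in sum-0 monocytes. Ifi27l2a, an interferon-induced gene, stood at 346 CPM in aged and 748 CPM in young members, with a ratio of 0.462 (0.394 to 0.546) against 0.864 (0.803 to 0.929) in sum-0 monocytes. Ahr, the aryl hydrocarbon receptor, had 73 UMIs in aged and 0 in young members, at least 2.31-fold higher on a floor of 3 counts, against a ratio of 0.891 in sum-0 monocytes. Ednrb, the endothelin receptor B, had 96 and 0, at least 3.04-fold higher, and was higher in aged sum-0 monocytes as well, at 2.51 (1.43 to 4.54). Of the remaining genes ranked here, Maea and Dnajc1 rest on 1 and 0 young member UMIs, with sum-0 ratios of 0.819 and 0.952. H2-Eb1, on 2 young member UMIs, was higher in aged sum-0 monocytes too, at 2.7 (2.43 to 3.01). Gdpd3 and Lmo2 were lower in aged members, at 0.371 and 0.303, and lower in aged sum-0 monocytes, at 0.439 and 0.58. Tmem123, Kcnq1ot1, Rap2c, Ino80b and Lilra6 were at 0.309 to 0.42 in members, on 12 to 24 young member UMIs, and at 0.753 to 1.26 in sum-0 monocytes. Of the G2M list, 9 of 10 measured genes were higher in aged members, with a median log2 ratio of 1.32, and 4 of 8 in aged sum-0 monocytes, with a median of 0.55. The classical list had 0 of 14 higher or lower in aged members.

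The members with only 1 of the transcripts were compared within the aged library, where there were 34 with Spp1 alone and 114 with Dmkn alone. Of 2385 measured genes, 112 were higher (4.7%) and 154 lower (6.46%) in cells with Spp1 alone. The complement genes C1qc and C1qb were higher in them, at 127 against 27.6 CPM and 390 against 150 CPM, ratios of 4.61 (2.62 to 8.21) and 2.61 (1.98 to 3.43). Saa3, an acute-phase serum amyloid, was at 9070 against 5359 CPM and Chil3, the chitinase-like protein Ym1, at 5529 against 3706 CPM. Class II transcripts were lower in cells with Spp1 alone, with Cd74 at 28.8 against 245 CPM (7 and 213 UMIs), a ratio of 0.117 (0.0466 to 0.246). The 34 cells are few, and the 10 richest of them held 55.8% of their Spp1 UMIs. Ly6c2 differed less, with 1117 CPM in cells with Spp1 alone and 1542 CPM in cells with Dmkn alone. Apoe was at 2190 and 1706 CPM in cells with Spp1 alone and in cells with Dmkn alone.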

How the data were processed

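One deposited table holds raw UMI counts for 11691 genes and 5793 cells, with the authors' population label for each cell. The 10x 3′ kit, version 2, was used per the labels, and per the submitters' processing notes the authors counted with Cell Ranger 2.1.1 on mm10; how they filtered cells and genes is not stated in the labels used here. The members and gene lists were chosen with earlier results of these data known.

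For each set of cells the counts were added up and scaled to CPM, with exact Poisson intervals. Ratios have exact conditional binomial intervals and shares exact Clopper-Pearson intervals, all at 95%. Cells are not replicates, so no test was run, and a ratio of at least 1.5 was counted for genes of at least 50 UMIs in the cells compared. A set at 0 UMIs was read against a floor of 3 counts. Thinning drew 1000 UMIs from each cell (seed 1), and no cell was too shallow.

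Between members and sum-0 monocytes the 15 highest and 12 lowest genes in both libraries were named, ranked by the interval bound nearest to 1, and the 10 highest and 10 lowest between aged and young members; list members were named for their UMIs or ratios, and some after their values were seen (those of the comparison of Spp1 alone with Dmkn alone among them). Ribosomal, mitochondrial, globin and Y-linked genes were left out of the ranking, and immunoglobulin and T cell receptor genes were not analysed here. X-linked genes other than Xist and Tsix were ranked. Clusters used 2000 variable genes, 30 components and 15 neighbours (scanpy 1.11.5, Leiden, resolution 0.5). Doublets were kept in the main values and removed in an alternative: per library, the cells with the highest scrublet scores, 8 of 1000 for each 1000 cells in the library, since the caller's own threshold marked 0 aged and 4 young cells. The calculations were tested on simulated counts. Software was Python 3.11.15, numpy 2.4.6, pandas 2.3.3, scipy 1.17.1, R 4.3.3 and edgeR 4.0.16, of which edgeR gave scaling factors only. Total depth was 2542726 UMIs in aged and 241852 in young members, against 2552092 and 2761909 in sum-0 monocytes.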

Additional observations from a re-analysis of the deposited data

Results flagged for a closer look

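Ino80b, which encodes a subunit of the INO80 chromatin remodelling complex, was at least 1.5-fold lower in Spp1/Dmkn monocytes than in sum-0 monocytes of 1 library and at least 1.5-fold higher in the other, with both intervals clear of 1. In the aged library it was 0.619 (0.481 to 0.792), from 106 UMIs in members and 172 in sum-0 monocytes. In the young library it was 1.85 (1.15 to 2.86), from 24 and 148 UMIs. Tmem123 and Ifi27l2a also had intervals clear of 1 on opposite sides but missed that fold in a library, with Tmem123 at 0.681 (0.504 to 0.915) in the aged and 1.9 (1.12 to 3.07) in the young, and Ifi27l2a at 0.66 (0.606 to 0.719) and 1.23 (1.05 to 1.44). The differences were not tested, since each age has 1 library.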

How the results depend on the processing

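No paired analysis was possible because each age has 1 library. Requiring a sum of at least 2 or 5, or 1 UMI of each gene, made members 41.1%, 19.5% or 17% of aged and 8.33%, 2.17% or 2.36% of young monocytes. In cells of at least 5000 UMIs they were 38% and 6.51%, within the 10th to 90th percentile of the members' depth 37% and 7.58%, and among cells with 3 Ly6c2 UMIs 43.7% and 7.19%. Applied to thinned cells, the rule left 23 aged members and 1 young member (2.32% and 0.181%), and leaving out cells with 3 UMIs of C1q genes or 3 UMIs over the whole S phase and G2M lists, a broad definition, left 11 and 1 (12.8% and 0.98%), so the young values of both rest on 1 cell. With cycling cells taken by the 7 genes of the report (chosen after seeing the data), 166 and 16 members were left (25.4% and 3.24%). The counts of genes higher in members in both libraries and genes lower in members in both libraries (93 and 246) became 143 and 23 with the rule on thinned cells, 46 and 119 within the depth range, 38 and 54 with counts thinned, 20 and 8 without C1q and broadly defined cycling cells (49 and 222 with the 7 genes), 153 and 392 from 20 UMIs, 37 and 56 from 200 UMIs, and 30 and 58 among Ly6c2 cells. The counts of genes higher in aged members and genes lower in aged members, over young members (698 and 414), became 111 and 83 with the rule on thinned cells, 178 and 107 with counts thinned, 69 and 39 without C1q and broadly defined cycling cells (417 and 221 with the 7 genes), 1301 and 1021 from 20 UMIs, and 121 and 63 from 200 UMIs; fewer genes reach the minimum where cells or counts are dropped. With the rule on thinned cells the direction turned for Lcn2 (0.175), Sdf2l1 (0.953), S100a8 (0.331), Cx3cr1 (1.73) and Apoe (1.73) in the young library, for Creld2 (0.749) and the G2M median (-0.12) in the aged library, and for Ifi27l2a between aged and young members (5.5). Without C1q and broadly defined cycling cells it turned for Ly6c2 (0.479) and H2-Aa (1.77) in the young library and for S100a9 between aged and young members (0.53). Within the depth range the MHC class II median between aged and young members was -0.32. The cause was not tested. TMM scaling, totals without ribosomal and mitochondrial UMIs, and removal of 124 aged and 27 young cells as doublets (16 and 1 members) kept each of these shares and counts within 1.5 times. Over the alternatives, 196 of 726 ratios of named genes between members and sum-0 monocytes moved and 8 reversed, as did 30 and 2 of 223 between aged and young members, and 47 and 2 of 1381 list medians. With the 7-gene cycling cells left out the G2M median was 0.24 in the aged and -0.17 in the young library. The 26 young members limit every young value.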
